A study of Mus musculus with 4 samples.

Results

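Exon, untranslated-region (UTR) and transcript-end peaks are the stretches of open chromatin that lie on the mature transcript or at its end, rather than in promoters, introns or the DNA between genes. They were taken from the authors' deposited table of peaks that differed between retinal endothelial cells with and without Rnf20. A peak was included when its annotation began with exon, 5' UTR, 3' UTR, TTS (transcription termination site) or non-coding (an exon of a non-coding RNA). This gave 401 of the 6891 listed peaks, or 5.82%. They comprised 155 exon, 56 5' UTR, 71 3' UTR, 94 TTS and 25 non-coding peaks.

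The assay was ATAC-seq, where a transposase cuts and tags open DNA, applied to CD31-selected endothelial cells of mouse retinas at postnatal day 7. All mice were C57BL/6 with Tg(Pdgfb-icre/ERT2) and Rnf20tm1a(EUCOMM)Wtsi in the strain name and carried the genotype Rnf20p/p, and all were given 75 µg of 4-hydroxytamoxifen daily from postnatal day 1 to postnatal day 4. Controls were CreERT2neg and knockouts CreERT2pos, and the inducible Cre is driven by Pdgfb regulatory sequence, so that Rnf20 can be deleted only in cells that use it. The 4 libraries were described as littermates, without saying whether animals were pooled, and the labels disagree on the number of cells per library. Of these libraries 1 control and 1 knockout have labels that agree, and 2 have a title that names one genotype and a genotype field that names the other. The table gives 1 mean per group on a log2 scale and does not say which libraries entered it, so no spread between replicates is available and no result below has a replicate check. Knockout and control below mean the columns with those names.

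RNF20 is the ligase that places ubiquitin on histone H2B in the body of transcribed genes, where the mark follows elongating RNA polymerase II. The first exon begins at the transcription start site (TSS) and is commonly accessible together with the promoter, whereas inner exons are mostly covered by nucleosomes. The last exon holds most 3' UTRs and ends where the transcript is cleaved and polyadenylated. Open sites in inner exons or past transcript ends can belong to regulatory elements or to start sites of alternative transcripts or neighbouring genes.

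The sequence just before the start site shows what kind of DNA the first-exon peaks adjoin. The 30 bases before the start are given for the called peak at Ppfia4 and for 5 peaks that cover this stretch. These 5 were ranked only among first-exon peaks whose gene had a RefSeq promoter window, with coverage judged against the start in that window. They include the 3 ranked peaks of positive log2 fold with smallest false discovery rate (FDR). The others are 2 of the 3 ranked peaks of negative log2 fold with smallest FDR. None of the 5 was called, and their FDR ran from 0.227 to 0.418 per the authors' deposited table. Peaks left out of this ranking can span their gene's start with smaller FDR, as at Dnajc6 (0.143 per the authors' deposited table). The stretches are from the RefSeq promoter windows of GRCm38.p6, the build also called mm10, read 5' to 3' on the gene's strand, and capitals mark CG dinucleotides.
Ppfia4: tggtcctcaCGgcactctcttctcccacag
Amigo1: caaacacaCGcaCGtgCGcccCGccccCGc
Kif18a: catctgaggcccagcctctggCGccaaact
AY702102: tttggccatagggagatatagagagagctt
Ppp1r14c: ggagaggggaggagacactcccagctgtcc
Neu3: taagggCGtggagaagcaagcagggCGggc
These stretches lie at chr1:134332929-134332958 (minus strand) for Ppfia4, chr3:108186259-108186288 (plus) for Amigo1 and chr2:109280708-109280737 (plus) for Kif18a. Those of AY702102, Ppp1r14c and Neu3 lie at chr2:169963188-169963217 (minus), chr10:3366120-3366149 (plus) and chr7:99828418-99828447 (minus). The Ppfia4 peak itself overlaps only 11 bases of the window, downstream of the start. In the whole windows, from 250 bases before to 50 after the start, CG was found 7 times for Ppfia4. It was found 35 times for Amigo1 and 26 for Kif18a, and 3 times for AY702102, 8 for Ppp1r14c and 12 for Neu3. The median over all 32851 RefSeq promoter windows was 7.

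Accessibility passed FDR < 0.05 at 7 of the 401 peaks listed by the authors (1.75%), against 3.02% of all 6891 listed peaks. Of the 7, 6 were lower in knockout, 1.5% of the members against 1.73% of all listed peaks, and 1 was higher, 0.249% against 1.29%. The share of members called was thus not above that of the whole table. The 6 losses lay in an inner exon of Mansc1, the 5' UTR of Ppfia4, the 3' UTRs of Bnip5, Pln and Ap3m2 and the first exon of the non-coding gene 9330117O12Rik. The single gain lay at the end of the non-coding transcript Gm15543.

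The peak in exon 2 of 4 of Mansc1, a gene for a membrane protein with a MANSC domain, lay on chromosome 6 at 134621730 to 134622027. Its log2 signal was, per the authors' deposited table, 4.41 in control and 0.13 in knockout, the lowest value of the knockout column, at FDR 3.65e-05. Because that value is a floor, the size of the loss is not given as a fold.

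The peak in the 5' UTR, exon 1 of 29, of Ppfia4 lay 205 bases from the TSS on chromosome 1, at 134332557 to 134332889. Ppfia4 encodes liprin-alpha-4, a scaffold protein of presynaptic sites. The authors' deposited table gives a log2 signal of 4.41 in control and 1.56 in knockout, a log2 fold of -2.85 at FDR 0.00446. It was the largest loss among the 56 5' UTR peaks, whose log2 folds ran from -2.85 to 1.87.

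In the 3' UTR class 3 peaks were lower, all in the last exon. The peak assigned to 1700030A11Rik lay in the last exon of Bnip5, exon 12 of 12 (chromosome 17, 28897596 to 28897777). The authors' deposited table gives 3.47 in control and the floor value of 0.13 in knockout there, at FDR 0.0273. Pln encodes phospholamban, the inhibitor of the calcium pump of the sarcoplasmic reticulum. Its peak (chromosome 10, 53344028 to 53344198) went from 3.73 in control to 1.13 in knockout, a log2 fold of -2.60 at FDR 0.039 per the authors' deposited table. Ap3m2 encodes a subunit of the AP-3 complex, which sorts cargo to lysosome-related organelles. Its peak (chromosome 8, 22788634 to 22788810) went from 3.69 to 0.82, a log2 fold of -2.86 at FDR 0.0441 per the authors' deposited table.

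The remaining 2 calls were at non-coding transcripts, whose roles are not given here. In exon 1 of 3 of 9330117O12Rik (chromosome 18, 54611770 to 54612003), 143 bases from the TSS, the authors' deposited table gives 3.85 in control and 0.82 in knockout, a log2 fold of -3.03 at FDR 0.0276. At the end of Gm15543 (chromosome 6, 145187271 to 145187985) it gives 4.69 in control and 6.04 in knockout, a log2 fold of 1.35 at FDR 0.0338. The mean log2 signal of the Gm15543 peak was 5.52, and no other called member reached the table's median of 3.74. The other 6 had mean log2 signals from 2.61 to 3.60 per the authors' deposited table.

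**Figure D1:**
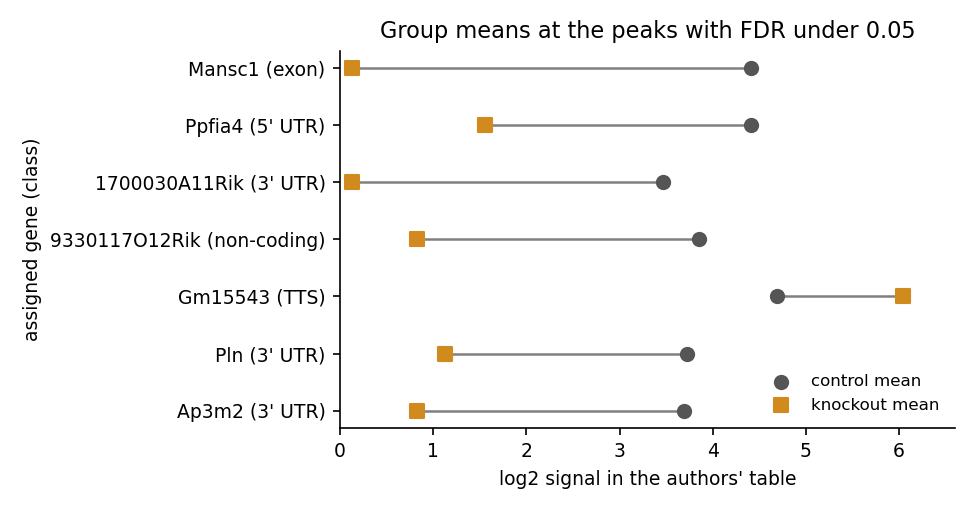
Control (circles) and knockout (squares) log2 signal of the 7 peaks with FDR under 0.05, 1 row per peak, as the authors' group means without error. The knockout mean is below the control mean in 6 rows, and at 0.13 for Mansc1 and 1700030A11Rik, and above it for Gm15543 (6.04 against 4.69).

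The members nearest the threshold had similar sizes on either side of it. Just inside were Pln and Ap3m2. Just outside was a TTS peak assigned to Phlda2, at the end of Nap1l4, a histone chaperone gene, with 3.64 in control and 1.13 in knockout (FDR 0.0572 per the authors' deposited table). The next was a peak in exon 6 of 6 of Elavl1, which encodes the RNA-binding protein HuR, assigned to Timm44, listed at 0 in control and at 3.45 in knockout (FDR 0.0589 per the authors' deposited table).

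The remaining 394 peaks were listed at unadjusted p < 0.05 only, so the shares that follow describe the direction of listed peaks and are not counts of changes. Of the 401 members 168 had a positive fold, meaning more signal in knockout, and 233 a negative one. That is 41.9% positive (95% Wilson interval 37.2% to 46.8%), against 62.1% of all listed peaks. All intervals here cover counting error only and treat peaks as independent, and the differences between classes were not tested. The median log2 fold was -0.73 for the members and 0.93 for the whole table. Since no listed fold lies near 0, a median shows mainly which sign prevailed.

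The sub-classes differed in this share. Exon peaks had a positive fold in 50 of 155 (32.3%, interval 25.4% to 39.97%) and 5' UTR peaks in 18 of 56 (32.1%, 21.4% to 45.2%). The 3' UTR peaks were positive in 37 of 71 (52.1%, 40.7% to 63.3%), TTS peaks in 51 of 94 (54.3%, 44.2% to 64.0%) and non-coding peaks in 12 of 25 (48.0%, 30.0% to 66.5%). The interval of exon peaks lay below those of 3' UTR and TTS peaks, while the intervals of 5' UTR and non-coding peaks overlapped all others. Promoter-TSS peaks, for comparison, were positive in 151 of 415 (36.4%) and intergenic peaks in 2259 of 3009 (75.1%).

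**Figure D2:**
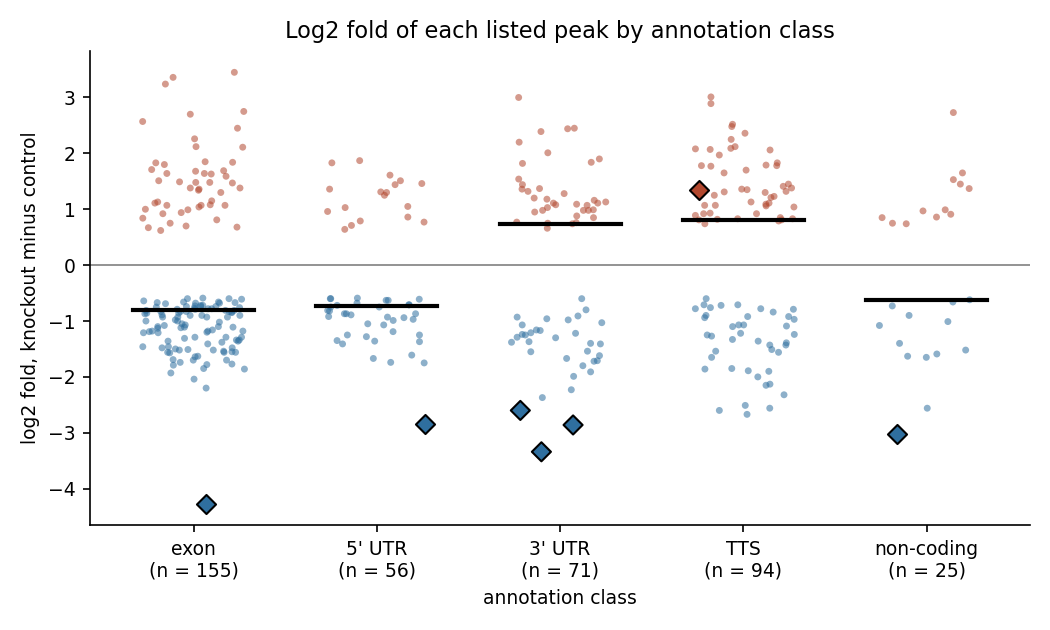
Log2 fold, knockout minus control, of each of the 401 peaks by annotation class, with positive folds in red, negative folds in blue, black bars at the medians and diamonds for the 7 peaks with FDR under 0.05. Negative points outnumber positive ones among exon (105 against 50) and 5' UTR peaks (38 against 18), and the empty band around 0 reflects the listing at unadjusted p < 0.05.

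The classes also differed in level and width. Median mean log2 signal was 4.54 for 5' UTR, 4.30 for non-coding, 4.05 for exon, 3.57 for TTS and 3.55 for 3' UTR peaks, against 3.74 in the whole table. Median width was 335 bases for 5' UTR, 339 for non-coding and 295 for exon peaks, and 225.5 for TTS and 229 for 3' UTR peaks. Among 5' UTR peaks, 50 of 56 lay within 1 kb of a TSS, as did 51 of 155 exon, 13 of 25 non-coding, 8 of 94 TTS and 0 of 71 3' UTR peaks.

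First exons and later exons stood apart. Exon numbers were given for 307 members, 113 of them in exon 1 and 194 in a later exon. Folds were positive at 25 of the 113 first-exon peaks (22.1%, interval 15.5% to 30.6%) and at 92 of the 194 later-exon peaks (47.4%, 40.5% to 54.4%), and the intervals did not overlap. Within the exon class alone the split was 7 of 55 first-exon peaks (12.7%, 6.30% to 24.0%) and 43 of 100 later-exon peaks (43.0%, 33.7% to 52.8%). First-exon 5' UTR peaks were positive in 15 of 49 (30.6%, 19.5% to 44.5%). Among later exons, middle exons were positive in 39 of 88 (44.3%) and last exons in 53 of 106 (50.0%). Most last-exon peaks were 3' UTR peaks, positive in 37 of 70 (52.9%). Within the exon class the order was the reverse, with middle exons positive in 37 of 80 (46.3%, 35.7% to 57.1%) and last exons in 6 of 20 (30.0%, 14.5% to 51.9%), and the intervals overlapped. The first-exon peaks were closer to the TSS (median 254 against 14208 bases), wider (378 against 261.5 bases) and stronger (median mean log2 signal 4.77 against 3.70) than the later-exon peaks. Their negative folds were smaller, with a median of -0.90 against -1.30, though these medians lay closer together at like signal, as given below.

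**Figure D3:**
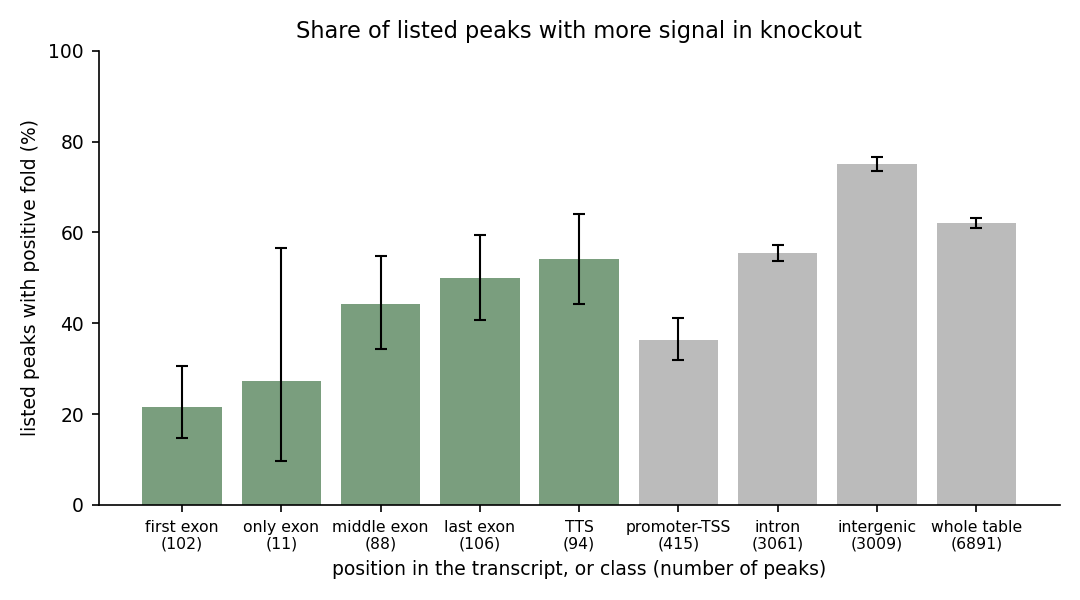
Share of listed peaks with a positive fold by position in the transcript (green) and in the other classes and the whole table (grey), with 95% Wilson intervals for counting error and the number of peaks in brackets. First exons of transcripts with several exons are lowest (21.6% of 102) and intergenic peaks highest (75.1%). The 11 peaks in single-exon transcripts have a wide interval.

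Among first-exon peaks with negative folds, those of smallest FDR after Ppfia4 and 9330117O12Rik, predicted genes left aside, lay at genes of several kinds, and none passed FDR < 0.05. At Hoxd13, a homeobox gene of limb and genital patterning, the log2 signal was 5.54 in control and 4.15 in knockout (-1.38, FDR 0.0887 per the authors' deposited table). At Tnfrsf1a, the gene of the main TNF receptor, it was 4.65 and 2.87 (-1.77, FDR 0.0962 per the authors' deposited table). At Vsx1, a homeobox gene of retinal bipolar cells, it was 4.70 and 3.24 (-1.46, FDR 0.0968 per the authors' deposited table). At Zar1, an oocyte maternal-effect gene, it was 4.60 and 3.05 (-1.56, FDR 0.109 per the authors' deposited table). Among 5' UTR peaks, those of Lgals12, a galectin gene (-1.28, FDR 0.22), Amigo1, a neuronal adhesion gene (-0.87, FDR 0.227), and Kif18a, a mitotic kinesin gene (-0.60, FDR 0.258), came next per the authors' deposited table. Kif18a had the highest levels of these, 8.0 in control and 7.40 in knockout per the authors' deposited table. The peak at Pwwp3b on the X chromosome lay in exon 5 of 7, in the 5' UTR (-1.25, FDR 0.263 per the authors' deposited table).

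No first-exon peak with a positive fold passed FDR < 0.05. Dnajc6 encodes auxilin, which strips clathrin from vesicles. It had 2 such peaks in the first exons of different transcripts, at 1.36 (FDR 0.143) and 1.64 (FDR 0.335) per the authors' deposited table. The 5' UTR peaks of Vgll3, a cofactor gene of TEAD factors (1.87, FDR 0.212), and Hoxa10, a homeobox gene (1.30, FDR 0.307), were also positive per the authors' deposited table. So were the 5' UTR peaks of Slc44a5, a choline transporter-like gene (1.61, FDR 0.333), Nxpe2 (1.83, FDR 0.337) and Gdf10, a BMP family ligand gene (1.51, FDR 0.376), from the authors' deposited table. The Pgr (progesterone receptor) first-exon peak stood at 1.13 (FDR 0.322 per the authors' deposited table).

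The split between first and later exons went with distance to the TSS. Members within 1 kb of a TSS were positive in 30 of 122 (24.6%, interval 17.8% to 32.9%) and those beyond in 138 of 279 (49.5%, 43.6% to 55.3%). All 122 lay at or downstream of the TSS, a position that goes with the annotation, since peaks just upstream are labelled promoter-TSS. Intron peaks within 1 kb were positive in 51 of 220 (23.2%, 18.1% to 29.2%), and promoter-TSS peaks at or downstream of the TSS in 24 of 123 (19.5%, 13.5% to 27.4%). Promoter-TSS peaks upstream were positive in 127 of 292 (43.5%, 37.9% to 49.2%). The low share just downstream of the TSS was thus found for the members and for promoter-TSS peaks. Intron peaks within 1 kb were not split by side of the TSS, and their share was also low. Of the later-exon peaks, the 12 within 1 kb had 2 positive folds and the 182 beyond had 90 (49.5%, 42.3% to 56.7%). Of the 11 first-exon peaks more than 1 kb from a TSS, 1 was positive (9.09%, 1.62% to 37.7%).

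The share was higher at greater distances. Among the members it was 41.8% of 67 from over 1000 up to 5000 bases, 46.9% of 49 up to 10000, 51.1% of 137 up to 50000 and 65.4% of 26 beyond 50000 bases. Introns over the same bins went from 38.8% to 68.7%. Intergenic peaks were at 67.1% already in the nearest of these bins and at 79.97% in the farthest. The members had intervals that overlapped those of introns and lay below intergenic peaks between 1000 and 50000 bases, with no overlap with the intergenic intervals. Beyond 50000 bases the interval of the members (46.2% to 80.6%) was too wide to set them apart from either.

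**Figure D4:**
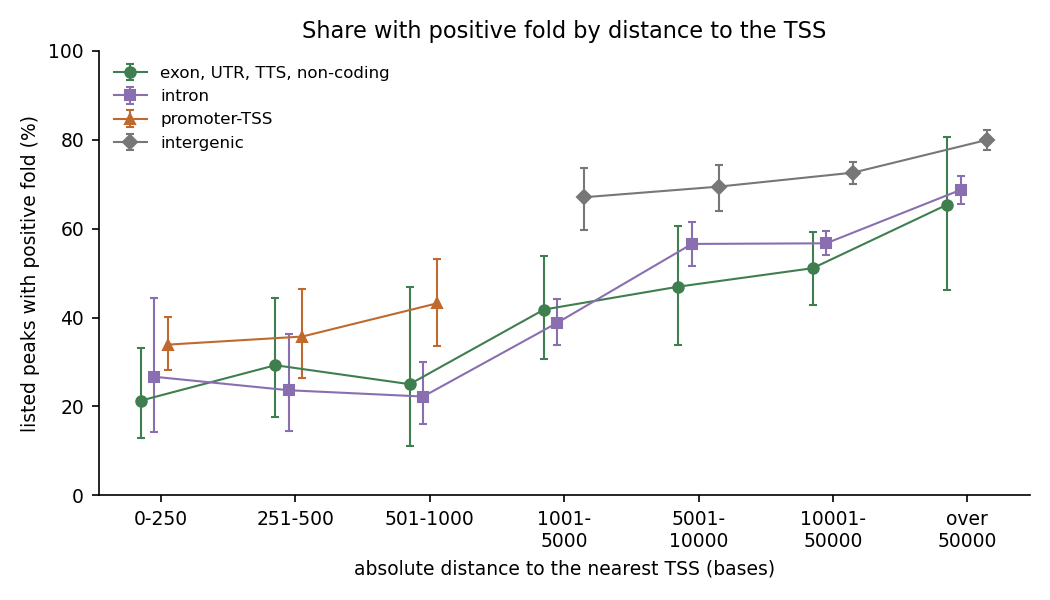
Share of listed peaks with a positive fold against the absolute distance to the nearest TSS in bases, for the 401 members, introns, promoter-TSS and intergenic peaks, with 95% Wilson intervals. Members and introns follow one another from 21.3% and 26.7% within 250 bases to 65.4% and 68.7% beyond 50000 bases, with intergenic peaks above them.

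Signal level moved with the split as well, and its part in the result was not tested. The table was split at the quartiles of mean log2 signal, 3.01, 3.74 and 4.70, into 4 signal bins. In the highest bin, 8 of 60 first-exon peaks were positive (13.3%) against 21 of 40 later-exon peaks (52.5%), and against 66.5% of all 1711 listed peaks. In the bin just below the table's median, 11 of 25 first-exon peaks were positive (44.0%), close to the 25 of 63 of the later exons (39.7%). In the bin just above the median the counts were 5 of 24 (20.8%) and 24 of 54 (44.4%). In the lowest bin they were 1 of 4 (25.0%) and 22 of 37 (59.5%). First-exon peaks thus had the lower share in 3 of the 4 bins, and the intervals were apart only in the highest. Median negative folds of first-exon and later-exon peaks were -0.75 and -0.80 in the highest bin and -1.11 and -1.195 in the bin just above the median. They were -1.51 and -1.445 in the bin just below the median and -1.74 and -1.93 in the lowest bin.

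**Figure D5:**
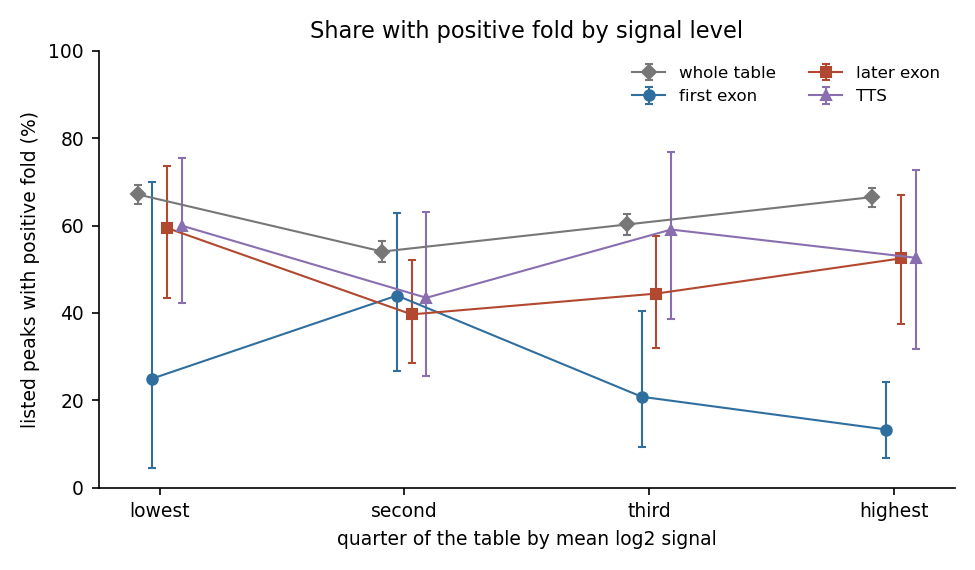
Share of listed peaks with a positive fold in each of the 4 bins of mean log2 signal, for first exons, later exons, TTS peaks and the whole table, with 95% Wilson intervals. First exons are at 13.3% in the highest bin, where later exons are at 52.5% and the whole table at 66.5%, and the interval of first exons in the lowest bin, with 4 peaks, is wide.

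Promoter composition was looked up for the first-exon peaks, of which 91 of 113 (80.5%) had a RefSeq promoter window for their gene. The nearest window held a median of 16 CG dinucleotides. Only 46 of the 91 peaks overlapped it, with a median of 15.5, and for the others it need not describe the DNA under the peak. Of the 91, the 21 with positive folds had a median of 12 (quartiles 6 and 23) and the 70 with negative folds a median of 17 (quartiles 9 and 27.5), so the ranges overlapped widely. The letters GGGCGG (GC box, either strand) occurred in 53.8% of these 91 windows and in 35.7% of all RefSeq windows. CCAAT (either strand) occurred in 28.6% and 37.4%, and TATAAA (either strand) in 14.3% and 13.6%. These are letter matches and not evidence of binding.

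Within the exon class, later-exon peaks of small FDR besides Mansc1 and Elavl1 lay in inner exons, and none passed FDR < 0.05. Of those with positive folds, the peaks in exon 6 of 14 of Alpk3, a kinase gene of cardiac muscle, and in exon 3 of 13 of Zfp462, a zinc finger gene, were listed at 0 in control. Their knockout levels were 3.24 (FDR 0.0887) and 3.36 (FDR 0.0922) per the authors' deposited table, and the first of them was assigned to Slc28a1. In exon 37 of 40 of Nup210l, a nucleoporin gene, a peak assigned to Rps27rt stood at 1.17 in control and 3.88 in knockout (2.70, FDR 0.109 per the authors' deposited table). With negative folds, Ppp1r13l, the gene of the p53 inhibitor iASPP, had a peak in exon 4 of 13 at 4.40 and 2.70 (-1.70, FDR 0.106 per the authors' deposited table). A control level of 0 was listed for 7 of the 401 members, 5 of them in later exons and 0 in first exons.

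In 3' UTRs the negative folds next after the called peaks belonged to Cav2, Papss1 and Camk2n2. Cav2 encodes caveolin-2, a component of endothelial caveolae, and its peak stood at 4.04 in control and 2.13 in knockout (-1.91, FDR 0.0782 per the authors' deposited table). The Cav2 label comes from a transcript with 2 exons. Its peak (17282311 to 17282435) lay 1188 bases from the TSS, near the start of the gene (17281185 to 17289130). Papss1, which makes the sulfate donor for sulfation, was at -1.71 (FDR 0.102) and Camk2n2, a CaMKII inhibitor gene, at -1.40 (FDR 0.112) per the authors' deposited table. Positive folds were listed for Rasgef1b, a Ras exchange factor gene (1.36, FDR 0.118), Cblif, the gastric intrinsic factor gene (1.90, FDR 0.126, assigned to Mrpl16), and Tmem114 (2.45, FDR 0.148) per the authors' deposited table. Aoc3 encodes the vascular adhesion protein VAP-1, and its peak stood at 4.52 in control and 5.61 in knockout (1.09, FDR 0.161 per the authors' deposited table). Rnf11, a RING ligase gene, was listed at 0 in control and at 3.00 in knockout (FDR 0.158 per the authors' deposited table).

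TTS peaks lay mostly just outside the gene. The label is given by position at a transcript end, so this place is not a result about these peaks. The transcript could be matched to a RefSeq gene for 93 of the 94, and 82 of these peaks were centred outside the gene, by a median of 569.5 and at most 997 bases. The 35 within 500 bases of the end had 17 positive folds (48.6%) and the 47 farther out had 28 (59.6%). The negative folds of smallest FDR after Nap1l4, predicted genes left aside, were at the ends of Foxp4, a forkhead gene (-2.56, FDR 0.0853, assigned to Mdfi), and Tnnc2, a troponin gene of fast muscle (-2.60, FDR 0.0917), per the authors' deposited table. Cnot10, a gene of the CCR4-NOT deadenylase (-2.67, FDR 0.107, assigned to Trim71), and Slamf9 (-1.90, FDR 0.109) came next per the authors' deposited table. Positive folds were listed at Mptx1 (2.89, FDR 0.124), the microRNA gene Mir6420 (1.23, FDR 0.142), Dock11 (1.45, FDR 0.174, assigned to Il13ra1) and the homeobox gene Pax4 (2.52, FDR 0.188) per the authors' deposited table. Rpap3 was listed at 0 in control and at 3.02 in knockout (FDR 0.196 per the authors' deposited table).

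The 25 non-coding peaks lay in exons of long non-coding RNAs and of non-coding transcripts of coding genes. Jpx, whose RNA takes part in X inactivation, had a first-exon peak at 5.81 in control and 6.56 in knockout (0.75, FDR 0.465 per the authors' deposited table). Chaserr, a non-coding gene just before Chd2, had a last-exon peak at -0.90 (FDR 0.542), while exon 13 of 39 of Chd2, a chromatin remodeller gene, had one at 1.84 (FDR 0.269) per the authors' deposited table. The antisense transcript Zfp85os had a last-exon peak at -2.56 (FDR 0.153) and Art5 a first-exon peak at -1.65 (FDR 0.175) per the authors' deposited table. The last-exon peaks of Chaserr and Zfp85os also lay near a TSS, at 272 and 453 bases, and were assigned to Chd2 and Zfp85. The peak in A930011G23Rik, assigned to Rasgef1b, was listed at 0 in control and at 2.74 in knockout (FDR 0.349 per the authors' deposited table). Further non-coding peaks were assigned to Dennd2d (-1.59), Ube2k (-1.40), Tyms (-0.66), Tff1 (0.74) and Irf1 (0.86), with FDR values from 0.302 to 0.512 per the authors' deposited table. The Dennd2d peak lay 467 bases from the TSS.

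The gene named in the table was often not the gene that holds the peak. Of 397 members with a matched transcript, 111 were assigned to another gene and 2 had no gene name. Assignment to another gene applied to 37 of 71 3' UTR, 40 of 93 TTS, 28 of 152 exon and 6 of 25 non-coding peaks, and to 0 of 56 5' UTR peaks. At TTS peaks assigned to their own gene 33 of 52 folds were positive (63.5%, interval 49.9% to 75.2%), and at those assigned to a neighbour 17 of 40 (42.5%, 28.5% to 57.8%), with overlapping intervals.

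Where a gene had several members they did not always go the same way. Of the 401 peaks 2 had no gene name, and the others were assigned to 386 gene names, 13 of which had 2 members, and in 8 of these both folds had the same sign. Of the 8, Cdk13, a transcription kinase gene, had 2 adjacent first-exon peaks (-1.10 and -0.68), and Clmp, whose peaks were assigned to Hspa8, 2 adjacent 3' UTR peaks (-1.07 and -0.60), per the authors' deposited table. Neighbouring peaks of this kind, of which there were 3 pairs within 1 kb, are not independent. Il17ra (-0.68 and -0.93, the latter in the 3' UTR of Kdm5a), Nkx6-3 (-1.29 and -1.79, the latter in Gpat4), Nxpe2 (1.83 and 0.99), Dnajc6 and Rasgef1b also had folds of 1 sign per the authors' deposited table. These counts follow the assigned gene. By position, Il17ra held peaks of both signs, since its own 3' UTR had a peak, assigned to Tmem121b, at 1.07 (FDR 0.479 per the authors' deposited table). Mapk6 had a 5' UTR peak at 1.46 and a last-exon peak at -1.54 per the authors' deposited table. Signs also differed for Mturn (0.66 and, in Plekha8, -1.21), Slc30a2 (0.98 and, in Extl1, -1.41), Tdrd7 (-1.19 and, in Ccdc180, 0.81) and Chd2 per the authors' deposited table.

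The study's title names VEGF and Notch signalling, and of the listed peaks at their genes 0 of 26 and 1 of 17 were members, beside 5.82% of the whole table, a share that counts this small cannot be told apart from. Of the 365 genes in 18 pathway and cell type lists, 9 members had a listed gene as assigned or host gene, 2 with positive and 7 with negative fold (median log2 fold -0.79), and 0 passed FDR < 0.05, while all 9 were listed at unadjusted p < 0.05. The H2B ubiquitination list, with 3 listed peaks of any class, and the TGF-beta and BMP list, with 27, also had 0 members. The latter holds only for the genes on that list, which leaves out the BMP family ligand gene Gdf10, a member named above. The 1 Notch member was in exon 14 of 26 of the ligand gene Jag1, at 3.70 in control and 2.41 in knockout (FDR 0.48 per the authors' deposited table). A peak at the end of Ctnnb1, the beta-catenin gene of Wnt signalling, was at 6.22 and 5.30 (-0.92, FDR 0.533 per the authors' deposited table) and was assigned to Mir7090. Both matrix members were positive, in exon 2 of 97 of Hspg2, the perlecan gene (0.94, FDR 0.331), and in exon 14 of 25 of Tnc, the tenascin-C gene (1.59, FDR 0.323), per the authors' deposited table. The 1 cell cycle member, in the 5' UTR of the CDK inhibitor gene Cdkn1c, was at 6.93 in control and 6.31 in knockout (-0.61, FDR 0.381 per the authors' deposited table).

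The labelled cell type could not be checked from the table, which lists only peaks that differed. Of the 31 pan-endothelial genes, 1 had a member, in exon 2 of 2 of Sox18, an endothelial transcription factor gene, at 4.95 in control and 4.16 in knockout (-0.79, FDR 0.51 per the authors' deposited table). Of the 10 lists for other retinal or blood cells, 7 had 0 members. The others had 1 each, all with negative folds, at Vsx1 of bipolar cells, at Klf1, the erythroid transcription factor gene (-0.83, FDR 0.271), and at the end of Tomm40, assigned to the glial gene Apoe (-0.60, FDR 0.299), per the authors' deposited table.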

How the data were processed

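ATAC-seq libraries of retinal endothelial cells were compared through a single deposited table. The authors deposited mean, knockout and control signal per peak as log2 values, a log2 fold change that equals knockout minus control within 0.01, and an unadjusted p-value and FDR, per the file headers. No p-value exceeds 0.0499. About 76400 peaks were tested, as implied by FDR, rank and p-value. Per the submitters' processing notes, coordinates are on mm10 and the tools were, with no role stated, MACS2, DiffBind, edgeR, ChIPseeker, deepTools, Bowtie2, Trimmomatic 0.36, Picard 1.119 and SAMtools. The sources used here give neither the annotation tool and its windows nor filters, read shifting, scaling and depth per library.

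Peaks were selected and exon numbers read from the annotation text (Python 3.11.15, pandas 2.3.3), a step checked on simulated annotations. The annotated transcript was matched to its RefSeq gene (GRCm38.p6) by accession and chromosome. Shares carry 95% Wilson intervals (SciPy 1.17.1). No test was run, since the table holds no values per library. Named peaks were all members at FDR < 0.05, the 5 of smallest FDR per class and per first or later exon in each direction, members of fixed gene lists, genes with 2 or more members and those nearest the threshold, with predicted genes named only if called. Ppp1r14c, Neu3 and AY702102 are named outside this rule, for their promoter sequences. A930011G23Rik is named as the host of a peak assigned to Rasgef1b. The peaks and lists were chosen with earlier results of these data known. Some items that these rules select are not reported here.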

Additional observations from a re-analysis of the deposited data

How the results depend on the processing

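No paired analysis was possible because the table holds group means only, and for the same reason no replicate could be left out. Of 65 alternative values, 37 kept a share inside its main interval or a count within 1.5 times the main count. The number of members passing was 7, and became 2 at FDR < 0.01 and 19 at FDR < 0.1. The whole table was not counted at these other thresholds, so both counts lack a share to be set against. Among peaks with signal no lower than the median of the table, 1 member passed FDR < 0.05. In the bin just above the median, 0 of 100 members passed, against 1.97% of 1726 listed peaks. In the highest bin 1 of 119 did, against 2.16% of 1711. Limited to FDR < 0.05, positive shares were 14.3% over all members, 100% for TTS and 0% for exon, 5' UTR, 3' UTR, non-coding, first-exon and later-exon peaks, on 1 to 7 peaks each. At unadjusted p < 0.01 they were 32.3% for all members, 10% for 5' UTR, 35.7% for 3' UTR, 16.7% for non-coding, 6.90% for first-exon and 36.9% for later-exon peaks. With folds of 1 or more in size, on the log2 scale, they were 40.4% for exon and 30.8% for first-exon peaks. Among peaks with signal no lower than that median they were 36.7% for all members and 20.0% for 5' UTR peaks. Without peaks within 1 kb of a TSS they were 49.5% for all members, 41.3% for exon, 50.0% for 5' UTR, 66.7% for non-coding and 9.09% for first-exon peaks. First-exon peaks were at 12.7% with annotations starting with exon only and at 13.3% in the highest signal bin, a setting chosen after seeing the data. The cause of these shifts was not tested. First-exon peaks had a lower positive share than later-exon peaks in each setting run on both, except at FDR < 0.05, where both were 0%. Few peaks per class and the missing depth and replicate values limit every share.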
